A study of Mus musculus with 6 samples.

Results

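Bst2, Ly6e, Rtp4, Ifi35, Ifi27l2a, Rsad2, Ifi44 and Ifitm3 are genes induced by type I interferon whose products act at or near membranes, or outside the better known sensor, oligoadenylate synthetase and IFIT families. Of these 8 genes, 7 had at least 1 probe set for which the array annotation names that gene alone, and together they had 13 probe sets of 45037. Ifi44 had none and is not analysed here. The members were chosen by their higher values on the vimentin-deficient arrays, so every genotype difference of a member below is a description, without a test.

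Macrophages were grown from the bone marrow of mice without vimentin and of their wild-type littermates, 17 weeks old and both on a C57BL/6 background, with 3 arrays per genotype (called vimentin-deficient and wild-type here). Vimentin forms intermediate filaments in mesenchymal cells and in macrophages. Femoral marrow of both genotypes was cultured in high-glucose medium with macrophage colony-stimulating factor from a cell line supernatant, at normal oxygen. The labels name no interferon treatment and do not describe the vimentin allele. The number of arrays limits the precision of every comparison. The labels call the samples biological replicates without naming animals, so spreads are those between these samples.

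Type I interferon binds a receptor pair, and the kinases Jak1 and Tyk2 then activate a transcription factor complex that contains Stat2 and Irf9. This complex binds the interferon-stimulated response element in promoters and starts transcription of many antiviral genes at once. Macrophages carry a low tonic level of this programme even without infection. Bst2 (tetherin) holds budding enveloped viruses at the cell surface, Ifitm3 hinders virus entry through endosomal membranes, and Ly6e is a lipid-anchored surface protein. Rsad2 (viperin) is a radical SAM enzyme of the endoplasmic reticulum and lipid droplets that turns CTP into a chain terminator of viral RNA synthesis. Rtp4 is a chaperone of G protein-coupled receptors, Ifi35 a cytosolic protein that pairs with Nmi, and Ifi27l2a a small hydrophobic membrane protein.

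The RefSeq promoter table, build GRCm38.p6, held the window from 250 bases before to 50 after the gene start for 5 of the 8 genes, which were Bst2, Ifitm3, Rsad2, Ifi35 and Ifi44. The core of the interferon-stimulated response element, GAAA followed after 2 free bases by GAAA, was searched on both strands. Its matches are shown in capitals for the measured members, since these genes differed together between the genotypes. Ifi35 is shown as the measured member whose window did not hold this core. All lines read 5′ to 3′ on the gene's own strand.
Bst2, chr8:71537423-71537722, minus strand: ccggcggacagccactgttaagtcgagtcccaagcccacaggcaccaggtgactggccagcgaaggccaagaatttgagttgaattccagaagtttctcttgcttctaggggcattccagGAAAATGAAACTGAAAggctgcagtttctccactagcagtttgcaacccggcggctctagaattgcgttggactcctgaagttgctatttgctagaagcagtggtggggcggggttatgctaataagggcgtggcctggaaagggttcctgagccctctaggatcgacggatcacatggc
Ifitm3, chr7:141010695-141010994, minus strand: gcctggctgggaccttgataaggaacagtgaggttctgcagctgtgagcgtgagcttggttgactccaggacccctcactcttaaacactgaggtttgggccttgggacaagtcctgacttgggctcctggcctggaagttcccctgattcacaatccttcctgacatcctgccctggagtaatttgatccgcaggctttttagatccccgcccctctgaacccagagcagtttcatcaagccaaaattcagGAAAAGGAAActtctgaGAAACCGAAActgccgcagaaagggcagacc
Rsad2, chr12:26456403-26456702, minus strand: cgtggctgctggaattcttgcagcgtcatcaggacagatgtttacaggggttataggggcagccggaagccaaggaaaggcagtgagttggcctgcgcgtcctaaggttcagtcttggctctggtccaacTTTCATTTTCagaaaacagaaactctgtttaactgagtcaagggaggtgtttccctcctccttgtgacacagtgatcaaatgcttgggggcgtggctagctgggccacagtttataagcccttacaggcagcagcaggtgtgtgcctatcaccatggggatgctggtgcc
Ifi35, chr11:101448162-101448461, plus strand: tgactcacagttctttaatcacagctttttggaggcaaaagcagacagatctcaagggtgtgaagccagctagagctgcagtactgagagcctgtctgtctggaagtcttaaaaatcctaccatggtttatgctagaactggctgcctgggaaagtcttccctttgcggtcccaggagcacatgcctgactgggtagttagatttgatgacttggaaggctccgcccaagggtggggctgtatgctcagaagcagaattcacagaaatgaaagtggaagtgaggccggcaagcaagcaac

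Of the 5 windows, 3 held the response element core, those of Bst2, Ifitm3 and Rsad2. In Bst2, 2 overlapping matches began 130 and 124 bases before the start. In Rsad2 the match lay on the opposite strand and began 120 bases before the start. In Ifitm3, 2 separate matches began at positions 2 and 19 after the start. Among all 27025 genes with a window, 3.99% had a promoter window with this core, as did 16 of the 35 other interferon-induced effector genes with a window. The gamma-activated site core TTCNNNGAA, a motif of interferon gamma-responsive promoters, was in the windows of Bst2, Ifitm3 and Ifi35, and in those of 9.55% of all genes. In Bst2 and in Ifitm3 it shared bases with a response element match. These matches describe letters in a window and show no binding.

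The array values themselves were on the log2 scale, with array medians from 7.23 to 7.25. Vim was lower on all vimentin-deficient arrays, with 8.20, 6.96 and 7.13 against 13.41, 13.24 and 13.31 in wild-type, a log2 difference of -5.89 (SE 0.31, limma adjusted p = 0.00414). Vimentin-deficient replicate 3 stood apart. It correlated with the other arrays across probe sets at 0.975 to 0.979, and those correlated with each other at 0.992 to 0.998. Member differences are therefore given with and without it. Differences are vimentin-deficient minus wild-type means, and in bulk RNA fewer cells of a type and less RNA per cell cannot be told apart.

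Of the surface and endosomal antiviral genes, Ly6e had the largest difference of the 7 measured members by the brightest probe set of each. Its brighter probe set read 11.49, 11.15 and 12.47 on vimentin-deficient replicates 1, 2 and 3, and 8.92, 9.68 and 9.49 on the wild-type arrays. The groups did not overlap, and the lowest vimentin-deficient array lay 1.47 log2 units above the highest wild-type one. The means were 11.70 ± 0.68 (SD, n = 3) and 9.36 ± 0.40 (SD, n = 3), a 5.05-fold difference (log2 difference 2.34, SE 0.36). Without vimentin-deficient replicate 3 the log2 difference of Ly6e was 1.95. Its dimmer probe set gave 1.51-fold with 6 arrays.

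Bst2, with 1 probe set, was the steadiest member across the vimentin-deficient arrays. It read 11.25, 11.16 and 11.22 there and 10.49, 10.70 and 10.67 on the wild-type arrays. The 3 vimentin-deficient values spanned 0.08 log2 units, less than the 0.20 of the wild-type values, and lay above all of them. Bst2 thus had a log2 difference of 0.59 (SE 0.08), a 1.51-fold difference, and the value without replicate 3 was also 0.59.

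Ifitm3 was the brightest member probe set and had the smallest difference. It read 13.52, 13.45 and 13.70 in vimentin-deficient and 13.03, 13.26 and 13.11 in wild-type macrophages. The groups were separated by 0.20 log2 units, which was smaller than the span of 0.22 within the wild-type arrays. The log2 difference of Ifitm3 was 0.43 (SE 0.09), or 1.34-fold, and 0.35 without replicate 3. Ifitm3 lay at the 99.8th percentile of probe sets by mean level.

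The enzyme gene Rsad2 had the widest spread of any member between vimentin-deficient arrays. Its brightest probe set read 10.19, 10.51 and 11.53 there, against 9.0, 9.29 and 9.17 in wild-type. Replicate 3 was the high array, and each of the others also lay above all wild-type arrays. The means were 10.75 ± 0.70 (SD, n = 3) and 9.15 ± 0.15 (SD, n = 3), a log2 difference of 1.59 (SE 0.32) or 3.02-fold. Without replicate 3 the log2 difference was 1.20, or 2.30-fold.

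The chaperone gene Rtp4 behaved like Rsad2 across arrays. Its brighter probe set read 11.65, 11.70 and 12.65 in vimentin-deficient and 10.12, 10.48 and 10.22 in wild-type macrophages. The closest arrays of the 2 genotypes were 1.17 log2 units apart, and replicate 3 was again the highest. The log2 difference was 1.73 (SE 0.27), a 3.32-fold difference, and 1.41 without replicate 3.

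Ifi35, the partner of Nmi, had a narrow spread within both genotypes. Its brightest probe set read 10.73, 10.69 and 10.95 in vimentin-deficient against 9.89, 9.88 and 9.96 in wild-type macrophages. The wild-type arrays spanned 0.08 log2 units and the gap to the lowest vimentin-deficient array was 0.73. The log2 difference of Ifi35 was 0.88 (SE 0.09), or 1.84-fold, and 0.80 without replicate 3.

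Ifi27l2a was the member that was lowest, not highest, on vimentin-deficient replicate 3. It read 12.43, 12.51 and 12.26 in vimentin-deficient and 11.68, 11.74 and 11.74 in wild-type macrophages. The wild-type arrays spanned 0.06 log2 units and the groups were 0.51 apart. Its log2 difference was 0.68 (SE 0.08), a 1.60-fold difference. Without replicate 3 the log2 difference of Ifi27l2a was 0.75, while for the other members it was equal or smaller.

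**Figure D1:**
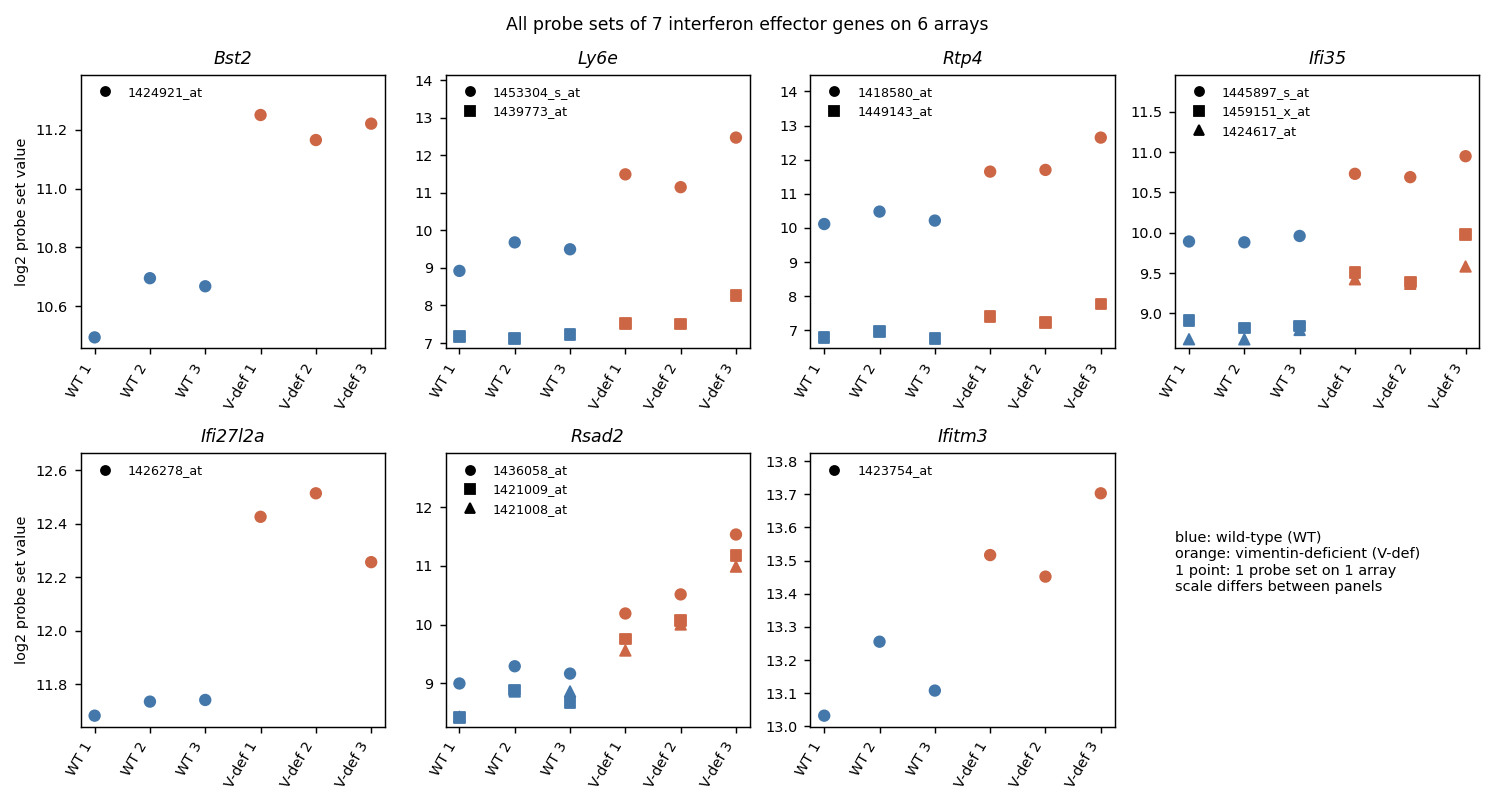
Log2 probe set values of the 7 measured members, 1 panel per gene and 1 point per probe set and array, with wild-type arrays in blue and vimentin-deficient arrays in orange. In all 13 probe sets the vimentin-deficient points lie above the wild-type points, with Ly6e 5.05-fold apart on its brighter probe set and Ifitm3 1.34-fold.

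All 7 measured members had higher means in vimentin-deficient macrophages, as had 39.6% of all 13445 tested genes. By their brightest probe set, all 7 also had every vimentin-deficient array above every wild-type array, as had 5.32% of tested genes. The same held for all 13 member probe sets, beside 5.49% of all non-control probe sets. With limma over all tested genes, 0 of the 7 passed an adjusted p of 0.05 with 6 arrays, where 0.0223% of all genes passed in either direction. At an unadjusted p under 0.05 there were 7 of 7, beside 3.01% of tested genes with higher values. A per-gene test without shared variances passed 0 members and 0 genes after adjustment. Without vimentin-deficient replicate 3, 7 of 7 passed limma, beside 1.31% of genes with higher values, and with array quality weights 6 of 7, beside 0.387%, Ifitm3 being the exception. Since the members were chosen with this contrast known, nothing is read from these counts.

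The median log2 difference of the 7 was 0.88, that of all tested genes -0.02. Without replicate 3 the medians were 0.80 and -0.01. The members' values ran from 0.43 for Ifitm3 to 2.34 for Ly6e, and 6 of the 7 exceeded 0.5, as did 1.13% of tested genes. In descending order of their brightest probe sets they were Ly6e, Rtp4, Rsad2, Ifi35, Ifi27l2a, Bst2 and Ifitm3. The step from Rtp4 to Rsad2 was 0.14 log2 units and that from Ifi27l2a to Bst2 0.09, both below the combined standard errors of 0.42 and 0.12. The other 4 steps were larger than theirs. These combined standard errors treat the genes of a step as independent, though both were read on the same arrays. They are therefore not the error of a step, and steps were not tested. The order depended on the probe set. With the mean of all probe sets of a gene, Rsad2 had 1.58, Ly6e 1.47 and Rtp4 1.18, and with the dimmest probe set Ly6e had 0.60 and Rtp4 0.63, below Rsad2, Ifi35 and Ifi27l2a.

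**Figure D2:**
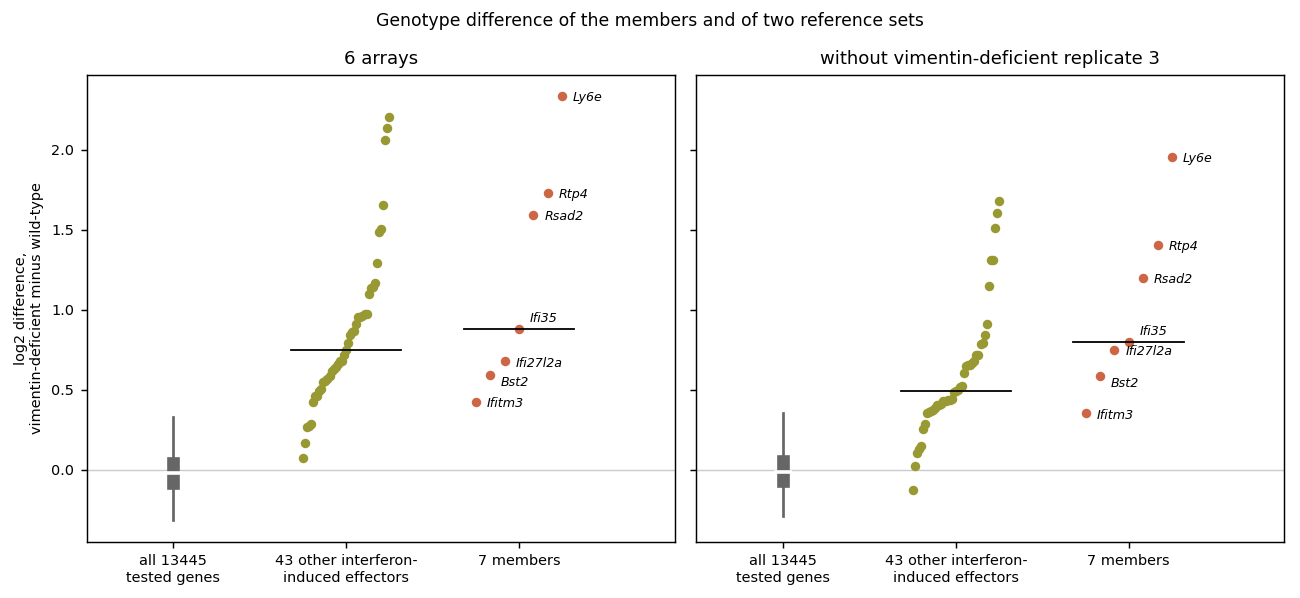
Log2 difference, vimentin-deficient minus wild-type, with 6 arrays and without vimentin-deficient replicate 3. Thick grey bars hold the middle 50% and thin lines the central 95% of all tested genes, with the median as a white mark, points are single genes and black lines are medians, 0.88 for the 7 members and 0.75 for the 43 other effectors with 6 arrays.

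Several probe sets of one gene read the same RNA and are no replicates, but they show how far a fold depends on the probe set. For 4 members there were several. The 3 Rsad2 probe sets gave log2 differences of 1.59, 1.67 and 1.46, and each followed the same order of arrays in vimentin-deficient cells, with replicate 3 highest and replicate 1 lowest. Without replicate 3 they gave 1.20, 1.25 and 1.06. The 3 Ifi35 probe sets gave 0.88, 0.77 and 0.74, and 0.80, 0.59 and 0.68 without replicate 3. With 6 arrays, each other probe set of these genes lay within 0.14 log2 units of the brightest one.

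The probe sets of Ly6e and Rtp4 gave unequal differences. The dimmer Ly6e probe set read 7.52, 7.51 and 8.27 in vimentin-deficient and 7.17, 7.12 and 7.22 in wild-type macrophages, a log2 difference of 0.60 (SE 0.19) or 1.51-fold. Without replicate 3 it was 0.35, or 1.27-fold. With 6 arrays the brighter one gave 1.74 log2 units more. On the vimentin-deficient arrays the gap between the 2 Ly6e probe sets, each set against its own wild-type mean, was 1.77, 1.44 and 2.00, so it was present on each of them. On the wild-type arrays that gap ran from -0.44 to 0.36.

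The dimmer Rtp4 probe set read 7.41, 7.23 and 7.78 in vimentin-deficient and 6.80, 6.96 and 6.76 in wild-type macrophages. Its log2 difference was 0.63 (SE 0.13), which is 1.10 less than that of the brighter one, and without replicate 3 it was 0.48. Its wild-type mean of 6.84 was below the filter value of 6.93, so it passed that filter through the vimentin-deficient arrays. Of the tested genes with several probe sets, 16 had a brightest one that was higher by over 1 log2 unit, among them Ly6e, Rtp4 and Rsad2. In 4 of their 28 pairs the brightest gave over 1 log2 unit more than the other, and these 4 include the Ly6e and Rtp4 pairs. Over all 15164 such pairs of tested genes, 0.897% differed by over 0.5 in either direction.

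The dim probe sets of Ly6e and Rtp4 lay at the 56.4th and 47.3rd percentile of all probe sets and the bright ones at the 94.9th and 97.0th. The other probe sets of Rsad2 and Ifi35 lay at the 84.1st percentile or above. In the platform's naming, the bright Ly6e and Ifi35 probe sets carry the suffix for probes shared by several transcripts, and 1 dimmer Ifi35 probe set the suffix for probes that may match other sequences. The control probe sets for the 3′ and 5′ ends of Gapdh differed by -0.02 to 0.01 log2 units on the 6 arrays, and those of actin by 0.18 to 0.23. Those of Tfrc differed by 1.36 to 1.44 on the vimentin-deficient and 1.49 to 1.56 on the wild-type arrays, so they did not overlap. The part of brightness, shared probes and RNA ends in the unequal differences was not tested.

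Within a genotype the members did not all move together. On vimentin-deficient replicate 3, 5 of the 7 members were at their highest for that genotype, beside 33.2% of all tested genes, while Bst2 had its middle value there and Ifi27l2a its lowest. The mean deviation of the 7 from the wild-type mean was 1.01, 1.00 and 1.52 log2 units on vimentin-deficient replicates 1, 2 and 3. The wild-type arrays gave -0.15, 0.12 and 0.03. Of the wild-type arrays, replicate 1 was the lowest for 6 of the 7 members, Ifi35 being the exception, and replicate 2 was the highest for 5.

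After each genotype's own mean was taken out, Rtp4 and Rsad2 correlated at 0.97 over the 6 arrays, Ly6e and Ifitm3 at 0.95, and Ly6e and Rtp4 at 0.92. The 10 pairs among Ly6e, Rtp4, Ifi35, Rsad2 and Ifitm3 ran from 0.66 to 0.97. Ifi27l2a ran from -0.88 with Ifi35 to 0.04 with Bst2. These values describe 6 arrays, and vimentin-deficient replicate 3 has the largest deviations in them.

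**Figure D3:**
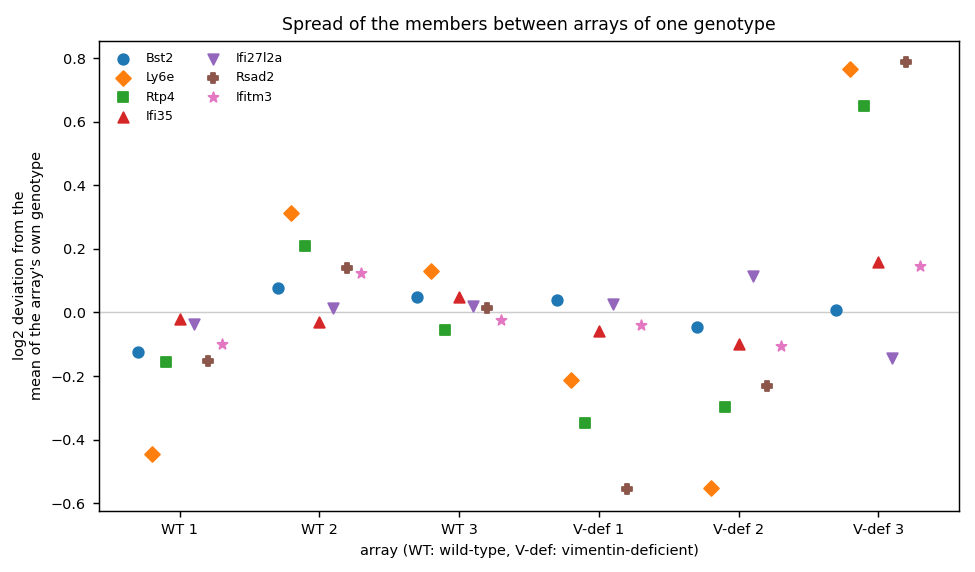
Deviation of each member's brightest probe set, in log2 units, from the mean of the array's own genotype, 1 point per gene and array. On vimentin-deficient replicate 3 Ly6e, Rtp4, Ifi35, Rsad2 and Ifitm3 lie above their genotype mean, Bst2 lies close to it and Ifi27l2a lies below it.

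The close relatives and partners of the members had differences in both directions. Of 20 such genes listed, 12 were tested, and 6 had higher and 6 lower means, with a median log2 difference of 0.03. By limma with 6 arrays 0 rose and 0 fell, and at an unadjusted p under 0.05 there were 4 higher and 1 lower. Without vimentin-deficient replicate 3, 3 rose and 1 fell.

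Of the IFITM relatives, Ifitm2, which like Ifitm3 restricts virus entry, read 12.31, 12.44 and 12.67 in vimentin-deficient and 12.31, 12.50 and 12.45 in wild-type macrophages. Its groups overlapped, with a log2 difference of 0.05 (SE 0.11), and Ifitm1 had 0.06 (SE 0.08). Ifitm6, a family member of myeloid cells, read 10.35, 10.43 and 12.01 against 9.36, 9.92 and 9.68. It had a log2 difference of 1.27 (SE 0.44, limma adjusted p = 0.538) with 6 arrays and rose without replicate 3, by 0.74 (limma adjusted p = 0.0187). Ifitm7 had -0.09. Paralogues of this family have similar sequences, and signal shared between their probe sets cannot be told apart here.

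The relatives of Ifi27l2a went in both directions. Ifi27, of the same family, read 10.78, 10.85 and 10.52 in vimentin-deficient and 11.29, 11.24 and 11.36 in wild-type macrophages. All vimentin-deficient arrays lay below all wild-type arrays, opposite to Ifi27l2a, as they did in 1364 of the 13445 tested genes. Ifi27 has 2 probe sets, and only the brightest is given here. The log2 difference of Ifi27 was -0.58 (SE 0.10, limma adjusted p = 0.238), and without replicate 3 it fell by 0.48 (limma adjusted p = 0.00841). Ifi27l2b, the near copy next to these genes, had 0.19 (SE 0.07), from a probe set whose suffix marks probes that may match other sequences.

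Of the partners, neither Nmi nor Cmpk2 passed the test with 6 arrays. Nmi, which binds Ifi35, read 9.28, 9.19 and 9.20 in vimentin-deficient and 8.68, 8.85 and 8.86 in wild-type macrophages, a log2 difference of 0.43 (SE 0.08, limma adjusted p = 0.238). Without replicate 3 Nmi rose by 0.44 (limma adjusted p = 0.0223). Cmpk2, a mitochondrial nucleotide kinase gene beside Rsad2, read 9.62, 9.51 and 10.57 against 8.29, 8.69 and 8.28. Its log2 difference was 1.48 (SE 0.28, limma adjusted p = 0.249), and it rose without replicate 3, by 1.15 (limma adjusted p = 0.000557). Of the Ly6 relatives of Ly6e, Ly6i had -0.02, Ly6k -0.03, Ly6g6c -0.09 and Lypd1 0.00, all with overlapping groups. Their genotype means lay between 7.23 and 7.55, close to the array medians of 7.23 to 7.25. Ly6a, Ly6c1, Ly6c2 and Ly6d were listed but not tested. These values therefore do not show whether the Ly6 family differed.

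**Figure D4:**
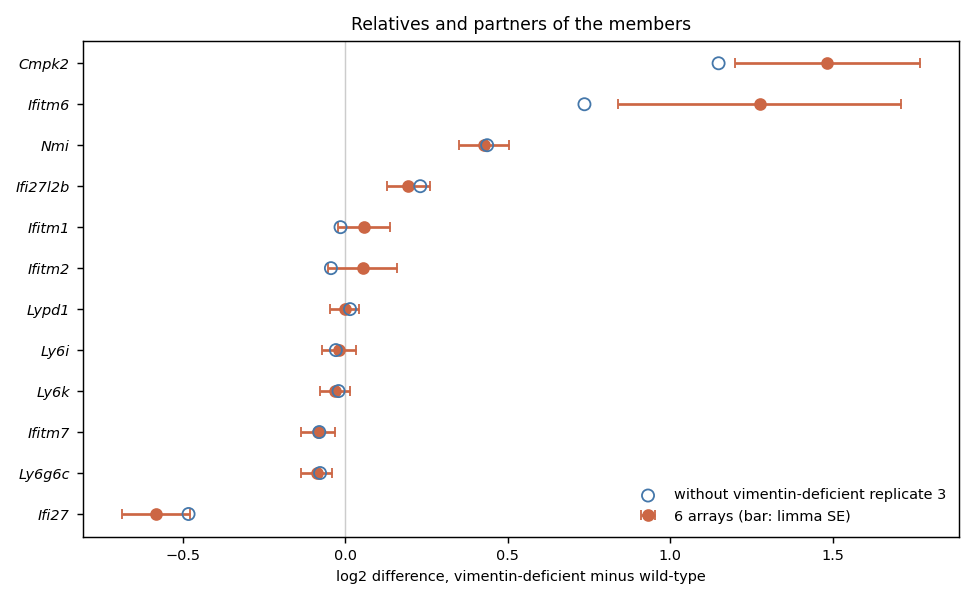
Log2 difference, vimentin-deficient minus wild-type, of the 12 tested relatives and partners. Filled points with bars give the value and limma standard error with 6 arrays, and open points the value without vimentin-deficient replicate 3. Cmpk2, Ifitm6 and Nmi lie to the right, Ifi27 to the left, and Ifitm1, Ifitm2 and the Ly6 genes near 0.

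The genes next to the members on the chromosome were looked up after the member values were seen. Taking the 2 nearest protein-coding genes on each side gave 28 genes, of which 20 were tested. Their median log2 difference was 0.00, and by limma with 6 arrays 0 passed after adjustment and 5 had an unadjusted p under 0.05. Of these 5, Ifi27 was lower and the others higher. Of the 13445 tested genes, 405 were higher and 667 lower at that threshold. Of the 20 tested neighbours 6 lay above all wild-type arrays on every vimentin-deficient array, as did 5.32% of tested genes. The neighbours are no separate set. Ly6i, Ifi27, Ifi27l2b, Cmpk2, Ifitm1, Ifitm2 and Ifitm6 are also among the relatives and partners above, and Cmpk2 is among the other effectors below. Ifi27l2b, Cmpk2 and Ifitm6 are among the 6. The 3 neighbours above 0.5 were Cmpk2 and Id2 near Rsad2 and Ifitm6 beside Ifitm3. Id2, an inhibitor of helix-loop-helix transcription factors, had 0.53 (SE 0.17). For Bst2, Ly6e, Rtp4 and Ifi35, the tested neighbours had log2 differences between -0.10 and 0.09 with 6 arrays. Without replicate 3 Mvb12a, beside Bst2, had 0.24.

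Upstream of the members, 0 of the tested ligand, receptor, signal chain and inhibitor genes passed limma with 6 arrays. Of 15 ligand genes listed, 3 were tested, and Ifna9, Ifna2 and Ifna1 had log2 differences of -0.07, 0.03 and 0.00. Ifnb1 and Ifng did not enter the test. All 6 receptor genes had lower means, as had 8117 of the 13445 tested genes. Il10rb and Ifnar2 were the 2 with an unadjusted p under 0.05, beside 667 of all tested genes with lower values. Ifnar2, the signalling chain of the type I receptor, had -0.23 (SE 0.09) and Ifnar1 -0.10 (SE 0.10). In the signal chain 3 of 10 tested genes had higher values at an unadjusted p under 0.05, and 2 rose without replicate 3, Irf7 by 1.11 and Stat2 by 0.56. Of 7 inhibitors 1 was higher and 1 lower at an unadjusted p under 0.05, and 1 rose without replicate 3, Usp18, the negative regulator of the receptor, by 1.67.

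All 43 other interferon-induced effector genes tested had higher means, with a median log2 difference of 0.75 against -0.02 for all tested genes. With 6 arrays 0 were called, with 38 at an unadjusted p under 0.05, and 26 rose without replicate 3, when the median was 0.49. That list was chosen with results of these arrays known, and is not independent evidence of its direction. Its smallest p with 6 arrays belonged to Oas1a (log2 difference 0.96, SE 0.11), followed by Oas3, Oasl1 (0.51) and Xaf1 (1.10). Without replicate 3 Oas3 rose by 1.31.

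The tested genes most like the members in pattern, by correlation over the 6 arrays with the mean of the 7, were Xaf1, Usp18, Oas3 and Irf7, all at 0.99 or above. Slc35e4 and Pald1, which are in none of the interferon lists here, followed at 0.99 with log2 differences of 0.18 and 0.40. Of the 13445 tested genes, 79 reached 0.95. All these values rest on the same 6 arrays and share the genotype difference. With genotype means taken out 533 genes reached 0.95, with Rela, Irgm2, Mier1, Lamp2, Junb and Tcf4 at the top, and the large deviation of vimentin-deficient replicate 3 carries weight in each.

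All 7 macrophage markers lay above the filter. Lyz2 read 14.04 in vimentin-deficient and 14.09 in wild-type macrophages and Cd68 13.62 and 13.73. Of the 7, 3 had higher means, and by limma with 6 arrays 0 passed, with 1 higher and 1 lower at an unadjusted p under 0.05. Cd14, a lipopolysaccharide co-receptor named here after its values were seen, read 12.76, 12.59 and 13.16 against 12.01, 12.12 and 12.12, so its groups did not overlap. Its log2 difference was 0.75 (SE 0.14, limma adjusted p = 0.249), and without replicate 3 it rose by 0.59 (limma adjusted p = 0.00201). Fcgr1, an Fc receptor also named after its values were seen, had 0.69 (SE 0.42), and 0.15 without replicate 3. The summed level of the 7 was 15.62 to 15.98 log2 units in vimentin-deficient and 15.62 to 15.75 in wild-type cells. Bst2 also marks plasmacytoid dendritic cells. Of 8 markers of that cell type 5 lay above the filter, and Siglech, Ly6d and Pacsin1 did not. Their summed level was 11.80, 11.90 and 12.45 on the vimentin-deficient and 11.87, 12.20 and 12.12 on the wild-type arrays. It overlapped between the genotypes, with Irf8 and Tcf4 as its brightest members, so the sum mostly follows these 2 genes. Irf8 is also in the signal chain list here. Of the 5 tested markers, 2 had higher means. Ccr9 had every vimentin-deficient array above every wild-type array, as had 5.32% of tested genes, with a log2 difference of 0.05. Whether such cells had a part in the Bst2 values was not tested.

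Of the plasmacytoid dendritic cell markers and those of the other cell types a marrow culture could hold and of proliferation, 0 of 29 tested genes passed limma with 6 arrays, with 0 higher and 1 lower at an unadjusted p under 0.05. Summed levels of conventional dendritic cell markers were 9.67 to 9.79 in vimentin-deficient and 9.69 to 9.76 in wild-type cells, with Itgae and Xcr1 brightest, both under 7.83. Monocyte markers, of which 2 of 4 were measured, gave 8.80 to 9.01 and 8.81 to 8.85, with Ccr2 and Plac8. The summed levels of the neutrophil (Elane, Mpo), B cell (Pax5, Cd79a), T and NK cell (Cd3e, Cd4), and stromal (Pdgfrb, Col1a1) lists overlapped too. Some single genes of these lists did not. Cd4 read 7.92, 7.99 and 8.01 in vimentin-deficient against 8.18, 8.28 and 8.45 in wild-type cells. S100a8 and Col1a2 were also lower on all vimentin-deficient arrays, and Col3a1 was higher. Erythroid markers, of which 2 of 4 were measured (Hba-a1, Klf1), were 8.51 to 8.62 in vimentin-deficient and 8.64 to 8.67 in wild-type cells. They did not overlap, but the genotype means of both genes lay between 7.49 and 7.69, close to the array medians of 7.23 to 7.25. Of the 13445 tested genes, 1364 had all vimentin-deficient arrays below all wild-type arrays and 715 had them above. Proliferation markers (Cdk1, Top2a) were 12.54, 12.32 and 9.89 in vimentin-deficient and 12.31, 11.77 and 12.15 in wild-type cells. Vimentin-deficient replicate 3 was thus the lowest array, while replicates 1 and 2 lay above all wild-type arrays. The part of these lists, the macrophage markers included, in the member values was not tested.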

How the data were processed

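The log2 probe set values of 6 arrays, deposited by the authors in the series table, were used as given. The labels and file header do not state how the authors summarised and normalized them, and background signal cannot be separated from them. The values ran from 5.43 to 14.50. Of 45101 probe sets 64 were controls, and 34945 carried 1 gene symbol in the platform annotation, 932 several and 9160 none. Symbols were updated by Entrez ID through the GRCm38.p6 gene table, which matched 34741. A gene was its probe set with the highest mean. The 13445 of 18193 genes at or above the 40th percentile, 6.93, entered limma (version 3.58.1, R version 4.3.3) with lmFit and trended eBayes, with Benjamini-Hochberg adjustment at 0.05. Standard errors are those of that fit, or of a fit over all non-control probe sets for a gene's other probe sets. The procedure was tested on simulated data. The members and lists were chosen with earlier results of these data known, and the genes named were all members, all tested relatives, 4 genes per other list by p, the 2 brightest cell type markers and the 6 most like genes. There were 0 unused sample columns. The 16 alternatives covered normalization, filter, probe set, variance model, weights, replicate number and single arrays.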

Additional observations from a re-analysis of the deposited data

How the results depend on the processing

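The median log2 difference of the members was 0.88 and kept its direction under all 16 alternatives. With the dimmest probe set of each gene it was 0.63, because Ly6e and Rtp4 are then read by probe sets with 0.60 and 0.63. It ran from 0.80 to 0.93 without single arrays. The number of members with higher means was 7 under each alternative. Each member kept its sign under all 16, with Ly6e between 0.60 and 2.61 and Rtp4 between 0.63 and 1.90 as the widest ranges. In all 13 member probe sets every vimentin-deficient array lay above every wild-type array. Leaving out an array, weighting arrays or choosing another probe set therefore could not reverse a sign. The filter, the variance model and the replicate block left the member values unchanged. The kept signs are thus no further evidence of the direction. The median of the other effectors was 0.75, with 0.49 to 0.91 without single arrays. The count of called genes, 3 with 6 arrays, depended most on single arrays. It ran from 0 to 315 without 1 array, 315 being the fit without vimentin-deficient replicate 3, and was 0 without any single wild-type array and 1 without vimentin-deficient replicate 2. It was 93 with array quality weights and 0 with the per-gene test without shared variances. With the replicate number as a replicate block it was 0. Deviations of same-numbered arrays of the genotypes correlated at 0.50, -0.19 and 0.05. With 3 arrays per genotype, and replicate 3 apart, these values cannot decide whether the numbers pair the samples. The number of arrays limits all values.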
